A study of Homo sapiens with 4 samples.

Results

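The 7 genes described here in NCI-H1048 cells are PLAU, PLAT, PLAUR, SERPINE2, TFPI2, THBS1 and CPA4. All but CPA4 act in or near the plasminogen system. They were taken by gene symbol from tables of 35979 symbols, and each of the 7 has a single row. CPA4 was chosen by its normalized count, which had been seen to be much higher after targeting POU2F3 or COLCA2, so the differences of the 7 genes from the control library are given as descriptions. The group is wider than proteases: PLAU, PLAT and CPA4 encode proteases, PLAUR a receptor, SERPINE2 and TFPI2 protease inhibitors, and THBS1 a matrix glycoprotein.

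NCI-H1048 is a human cell line established from small cell lung cancer, and the study's title speaks of its tuft cell-like class, which is known to express POU2F3. Poly(A) RNA was sequenced in 4 libraries from cells given guide RNA (gRNA). COLCA2 gRNA was used in 2 libraries, each made with another guide (genotype labelled COLCA2 knockout), POU2F3 gRNA in 1 (labelled POU2F3 knockout) and non-targeting gRNA in 1 (labelled WT, called the control below). The labels list the treatment as NA for all 4, and whether clones or pools of edited cells were used is not given in the sources used here. COLCA2 and C11orf53 are named in the study's title as transcriptional co-activators of this tumour type.

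Plasminogen is a circulating zymogen that is cut to plasmin, a serine protease that dissolves fibrin and degrades matrix proteins. Urokinase (PLAU) makes the cut at the cell surface, where its receptor (PLAUR) holds it, and tissue-type activator (PLAT) does so mainly on fibrin. Serpins and Kunitz-type inhibitors block the activators and plasmin. In tumours this system is known for pericellular proteolysis, migration and invasion.

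Reads assigned to genes numbered between 21587741 and 29632382 per library. The normalized count of POU2F3 was 14602 in the control, 3677 and 2351 under COLCA2 guides 1 and 2 and 1449 under the POU2F3 guide. COLCA2 was at 5585, 3119, 3541 and 1393 in the same order. Of 14 tuft markers, 11 passed a minimum mean of 20, among them AVIL at 5093 in the control, while TRPM5 was at 1.91 and CHAT at 10.5 there. AVIL was at 990 and 742 under COLCA2 guides 1 and 2 and 242 under the POU2F3 guide. Of the 11, 9 were at least 2-fold lower with both COLCA2 guides (2.02% of all genes with that mean). Under the POU2F3 guide 10 were (3.05%). The targets POU2F3 and COLCA2 are themselves on that list. The 8 neuroendocrine markers summed to 221 in the control and between 109 and 118 in the others, with GRP and CALCA at 0 in all 4. INSM1 made up most of that difference, at 118, 23.8, 24.7 and 35.3 in the same order of libraries. Of the others that passed the minimum, CHGB was at 22.9, 17.6, 27.0 and 22.7, and SYP at 74.5, 60.1, 48.2 and 52.0. All differences from control below rest on the same single non-targeting library, so the comparisons of the 2 targets share it. The only spread within a group is that between the COLCA2 guides, which may be technical, and differences under the POU2F3 guide have no replicate check.

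POU2F3 was itself lower under both COLCA2 guides, so dependence on COLCA2 and on POU2F3 cannot be told apart here. With both COLCA2 guides, 4 of the 7 genes (PLAU, TFPI2, THBS1 and CPA4) were at least 2-fold higher than in the control and 0 were at least 2-fold lower. Over all 14940 genes with a mean of at least 20, 5.79% were that much higher with both guides and 2.02% lower. With POU2F3 gRNA, 5 of the 7 (these 4 and PLAT) were at least 2-fold higher and 0 lower, where 6.73% of all genes were higher and 3.05% lower. Taken alone, COLCA2 gRNA 1 had 4 higher and 0 lower, beside 6.44% and 3.19% of all genes, and COLCA2 gRNA 2 had 5 higher and 0 lower, beside 7.25% and 3.64%. As an alternative count, by edgeR's quasi-likelihood test on whole reads recovered from the normalized counts (Benjamini-Hochberg adjusted over all genes), which takes its spread from the COLCA2 guides alone, 4 of the 7 were called higher and 0 lower with COLCA2 targeted, where 11.4% and 7.51% of all genes were. With POU2F3 targeted the test called 4 higher and 0 lower, beside 8.45% and 3.98%, and between the targets 0 and 0, beside 0.107% and 0.234%. Short of 2-fold, PLAUR was below the control with each target, and PLAU and CPA4 were lower under the POU2F3 guide than under either COLCA2 guide. All 7 genes passed the minimum. PLAT passed it only through COLCA2 gRNA 2 and POU2F3 gRNA, so its place among the higher genes was partly set by that filter. The choice of CPA4 and its companions used these same contrasts, so none of these counts, edgeR's included, is evidence that the group is particular.

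**Figure D1:**
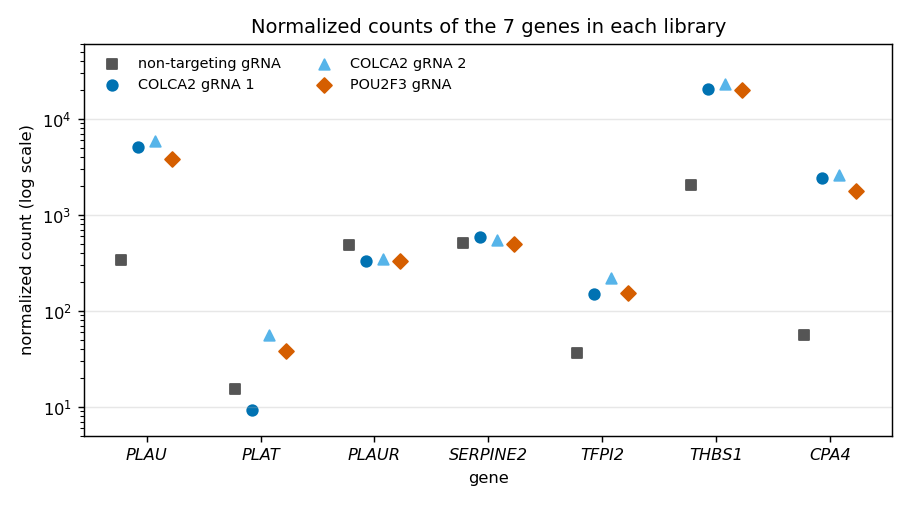
Normalized count (log scale) of each of the 7 genes in the 4 libraries (non-targeting control, both COLCA2 guides, POU2F3 guide), 1 point per library. PLAU, TFPI2, THBS1 and CPA4 have their control point far below the other 3, PLAUR and SERPINE2 keep within a narrow band, and PLAT is lowest under COLCA2 guide 1.

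PLAU (ENSG00000122861) encodes urokinase, the activator that works on the cell surface. It is on chromosome 10, plus strand, at 73909177 to 73917497 (GRCh38, GENCODE 29). The normalized count stood at 342 in the control, 5055 under COLCA2 guide 1, 5901 under COLCA2 guide 2 and 3829 under the POU2F3 guide. The control library was far below the other 3, and the POU2F3 gRNA library was below both COLCA2 libraries. The level was 14.8-fold that of the control under COLCA2 guide 1 (95% exact interval 13.3 to 16.5, covering counting error only, as do all intervals here) and 17.3-fold under COLCA2 guide 2 (15.5 to 19.3). With POU2F3 gRNA it was 11.2-fold (10.1 to 12.5). On the log2(normalized count + 1) scale the mean ratio for the COLCA2 pair was 3.99 ± 0.16 (SD, n = 2), against 3.48 under the POU2F3 guide. C10orf55, a gene on the opposite strand that overlaps PLAU by 7529 bases, has no row under its GENCODE identifier, so its level is not known here. Use of the strand in counting is not given in the sources used here.

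PLAT (ENSG00000104368), tissue-type plasminogen activator, lies on the minus strand of chromosome 8 at 42175233 to 42207724. It was by far the lowest of the 7 genes, with 16 reads in the control, 9 under COLCA2 guide 1, 48 under COLCA2 guide 2 and 45 under the POU2F3 guide. As normalized counts these were 15.3, 9.33, 56.5 and 37.8. The COLCA2 guides thus fell on opposite sides of the control, at 0.611-fold (0.238 to 1.47) and 3.69-fold (2.06 to 6.97), and the mean log2 ratio of 0.58 ± 1.75 (SD, n = 2) was smaller than their spread. COLCA2 gRNA 2 was 6.05 times COLCA2 gRNA 1 for PLAT, and it was the only one of the 7 genes at least 2-fold apart between the guides. Of all genes 2.22% were, with 1.05% higher and 1.16% lower under gRNA 1. With POU2F3 gRNA it was 2.47-fold the control (1.37 to 4.69). That 2-fold call ended with a pseudocount of 10, which gave a log2 ratio of 0.92, and edgeR did not call PLAT under either target.

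PLAUR (ENSG00000011422) encodes the urokinase receptor, a surface protein held by a lipid anchor. It lies on the minus strand of chromosome 19 at 43646095 to 43670547. The normalized count stood at 487 in the control, 333 and 345 under COLCA2 guides 1 and 2 and 327 under the POU2F3 guide. Here the control was the highest library, and the other 3 lay close together. The level was 0.683-fold (0.592 to 0.787), 0.708-fold (0.611 to 0.818) and 0.672-fold (0.588 to 0.768) that of the control, short of a 2-fold difference. The mean log2 ratio for the COLCA2 pair was -0.52 ± 0.035 (SD, n = 2), and it was -0.57 under the POU2F3 guide. That SD leaves out the error of the control library, which both ratios of the pair share. The receptor did not share the direction of its ligand.

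Levels of different genes were set side by side as normalized count per kilobase of the longest GENCODE transcript. On that scale PLAUR was the most abundant of the 7 in the control, at 302, followed by THBS1 at 261, PLAU at 129, SERPINE2 at 85.6, then CPA4, TFPI2 at 14.8 and PLAT at 4.41. In the POU2F3 gRNA library the order was THBS1 at 2576, PLAU at 1441, CPA4 at 624, PLAUR at 203, SERPINE2 at 83.8, TFPI2 at 62.5 and PLAT at 10.9. Both COLCA2 libraries had this same order, and there SERPINE2 and TFPI2 were near each other with gRNA 2, at 90.7 and 89.0. The ratio of PLAU to PLAUR per kilobase was 0.425 in the control, 9.20 and 10.4 under COLCA2 guides 1 and 2 and 7.09 under the POU2F3 guide. The transcripts used for length may not be those expressed, so these orders are approximate.

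SERPINE2 (ENSG00000135919) encodes protease nexin-1, a serpin that blocks thrombin, urokinase and plasmin. It lies on the minus strand of chromosome 2 at 223975112 to 224039319. The normalized count stood at 513 in the control, 591 and 543 under COLCA2 guides 1 and 2 and 502 under the POU2F3 guide. All 4 libraries were close, with the highest 1.18 times the lowest. The fold of the control was 1.15 (1.02 to 1.30), 1.06 (0.934 to 1.20) and 0.979 (0.870 to 1.10), so only the interval of COLCA2 gRNA 1 left out 1. The mean log2 ratio for the COLCA2 pair was 0.14 ± 0.086 (SD, n = 2).

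TFPI2 (ENSG00000105825) encodes a secreted Kunitz-type inhibitor that acts on plasmin and trypsin-like proteases. It lies on the minus strand of chromosome 7 at 93885396 to 93890991. The normalized count stood at 36.3 in the control, 149 and 218 under COLCA2 guides 1 and 2 and 153 under the POU2F3 guide. The control stood below the rest, and the POU2F3 gRNA library lay between the COLCA2 libraries. TFPI2 was 4.11-fold (2.86 to 6.05) and 6.0-fold (4.21 to 8.74) the control for the COLCA2 pair and 4.21-fold (2.95 to 6.14) under the POU2F3 guide. The mean log2 ratio of 2.28 ± 0.38 (SD, n = 2) rests on 38 control reads. GNGT1, which overlaps it on the other strand by 5596 bases, had at most 13.4 normalized counts in any library.

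THBS1 (ENSG00000137801) encodes thrombospondin-1, a matrix glycoprotein that binds plasminogen and plasmin and is known for releasing active TGF-beta. It is on chromosome 15, plus strand, at 39581079 to 39599466. The normalized count stood at 2026 in the control, 20158 and 22791 under COLCA2 guides 1 and 2 and 20029 under the POU2F3 guide. The 3 libraries of targeted cells lay close together, about an order of magnitude above the control. The folds were 9.95 (9.51 to 10.4), 11.2 (10.8 to 11.8) and 9.88 (9.45 to 10.3), the narrowest intervals among the 7 because at least 2122 reads stood behind each value. Its share of all normalized counts was 0.00834% in the control and between 0.0788% and 0.0898% in the others. The overlapping opposite-strand gene FSIP1 had at most 44.5 normalized counts.

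CPA4 (ENSG00000128510) encodes carboxypeptidase A4, a secreted zinc enzyme that removes hydrophobic residues from the C-terminal end of peptides. It is no part of plasminogen activation itself. It is on chromosome 7, plus strand, at 130293134 to 130324180. The normalized count stood at 56.3 in the control, 2389.7 and 2619 under COLCA2 guides 1 and 2 and 1758 under the POU2F3 guide. The control held 59 reads, where the other libraries held between 2094 and 2305. The level was 42.4-fold (32.8 to 55.9) and 46.5-fold (35.9 to 61.3) that of the control for the COLCA2 pair and 31.2-fold (24.1 to 41.1) under the POU2F3 guide. The mean log2 ratio for the COLCA2 pair was 5.45 ± 0.093 (SD, n = 2), against 4.94 under the POU2F3 guide.

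**Figure D2:**
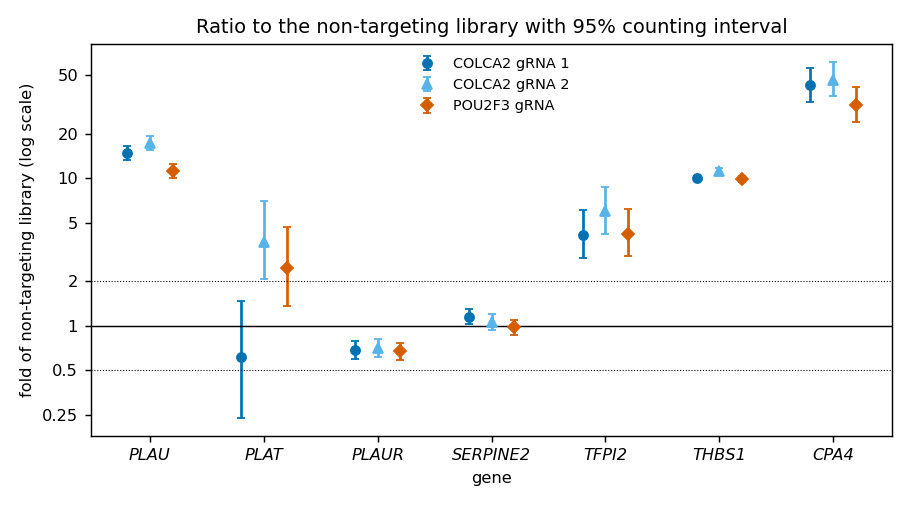
Fold of the control (log scale) for the 7 genes under each COLCA2 guide and the POU2F3 guide. Bars are 95% exact intervals for counting error, and dotted lines mark 2-fold. CPA4 lies highest, between 31.2 and 46.5, and the 3 PLAT points lie on both sides of 1.

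Among the 14940 genes ranked by log2 ratio from the highest, CPA4 was at place 23 under COLCA2 guide 1, 26 under COLCA2 guide 2 and 23 under the POU2F3 guide. PLAU was at 92, 93 and 80 in the same order, THBS1 at 153, 149 and 108, and TFPI2 at 369, 299 and 357. The places say where each gene stood in these libraries and carry no error. The median log2 ratio over the 7 genes was 2.01, 2.55 and 2.04, beside -0.0052, -0.0017 and -0.0037 over all genes tested.

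**Figure D3:**
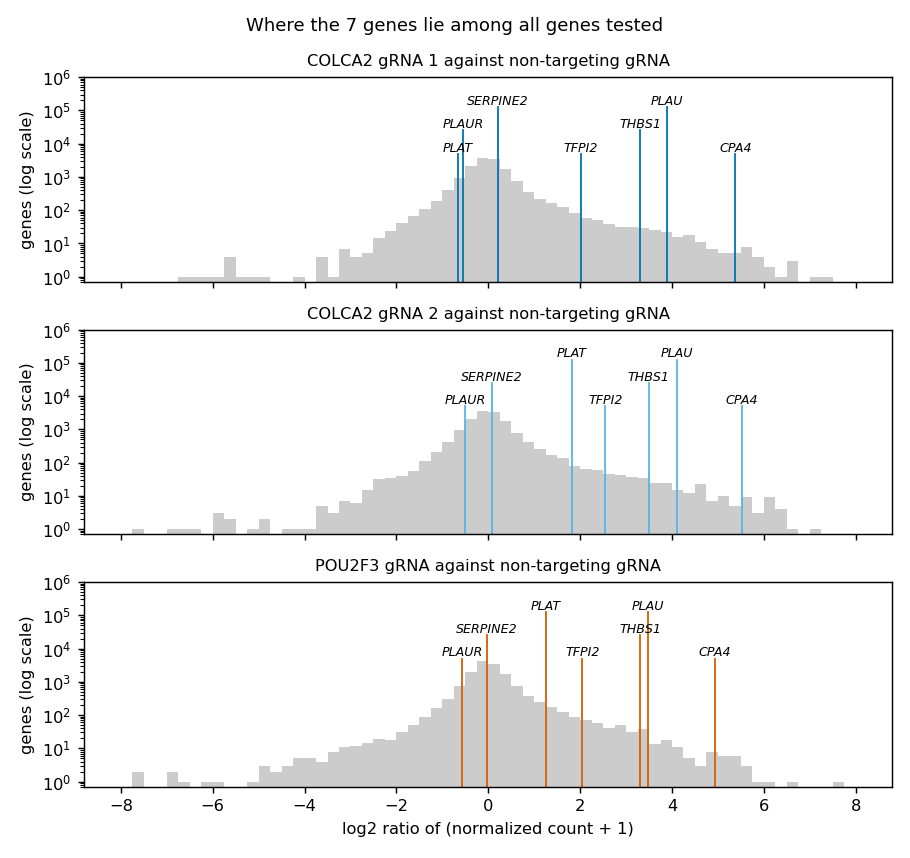
Histograms of the log2 ratio of (normalized count + 1) to the control over the 14940 genes tested (number of genes on a log scale), 1 panel per library, with a line at each of the 7 genes. CPA4, PLAU and THBS1 lie in the thin right tail of each panel, while SERPINE2 and PLAUR lie in the central mass.

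The sequences before the start sites of the genes were read from RefSeq (GRCh38.p14), because 4 of the genes were higher together. A window of 250 bases before a start was found for 6 of the 7 genes, 8 windows in all, since PLAU and SERPINE2 had more than 1 start. Each was searched for the AP-1 motif TGANTCA, which reads the same on both strands, and on both strands for the TEAD motif GGAATG, the octamer ATGCAAAT bound by POU factors such as POU2F3 and the TATA box TATAAA. CPA4 and THBS1 are shown for the largest and the deepest of the differences, TFPI2 as the smallest of the 4, and PLAUR as a gene that did not go up. They are written 5′ to 3′ on the strand of the gene, with capitals at every match.
CPA4, chr7:130292911-130293160, plus strand: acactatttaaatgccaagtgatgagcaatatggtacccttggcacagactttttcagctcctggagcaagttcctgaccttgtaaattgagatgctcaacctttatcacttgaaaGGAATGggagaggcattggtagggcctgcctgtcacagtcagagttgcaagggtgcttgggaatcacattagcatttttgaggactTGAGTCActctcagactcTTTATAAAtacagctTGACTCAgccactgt
THBS1, chr15:39580829-39581078, plus strand: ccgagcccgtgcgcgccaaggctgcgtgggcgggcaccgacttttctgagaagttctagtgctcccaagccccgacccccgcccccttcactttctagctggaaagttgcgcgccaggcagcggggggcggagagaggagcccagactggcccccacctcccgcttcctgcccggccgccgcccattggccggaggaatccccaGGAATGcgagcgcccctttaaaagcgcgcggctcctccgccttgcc
TFPI2, chr7:93890754-93891003, minus strand: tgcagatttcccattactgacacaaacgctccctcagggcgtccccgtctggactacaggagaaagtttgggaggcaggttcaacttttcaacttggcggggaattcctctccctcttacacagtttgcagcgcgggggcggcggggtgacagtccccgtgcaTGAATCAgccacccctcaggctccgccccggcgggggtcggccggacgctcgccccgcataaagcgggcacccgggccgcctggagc
PLAUR, chr19:43670170-43670419, minus strand: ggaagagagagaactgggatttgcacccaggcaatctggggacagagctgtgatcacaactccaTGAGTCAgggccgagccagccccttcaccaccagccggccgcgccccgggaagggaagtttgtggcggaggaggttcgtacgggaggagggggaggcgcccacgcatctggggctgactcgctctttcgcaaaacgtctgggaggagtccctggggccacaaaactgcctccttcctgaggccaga

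The CPA4 window held 2 AP-1 matches, at 48 to 42 and 15 to 9 bases before the start, 1 TEAD match at 134 to 129, and a TATA box at 28 to 23 that overlaps a match on the other strand. THBS1 held 1 TEAD match at 46 to 41 bases, and TFPI2 held 1 AP-1 match at 87 to 81. PLAUR, whose level was below the control, also held 1 AP-1 match, at 186 to 180. Both PLAU windows and both SERPINE2 windows held none of the 4 motifs, and the octamer was in none of the 8 windows. Of 35116 RefSeq windows of the same length, 6.57% held TGANTCA, 11.9% GGAATG, 1.63% ATGCAAAT and 10.7% TATAAA. The starts here are RefSeq starts, which differ from the GENCODE 29 positions given above for all but THBS1. By GENCODE the PLAUR, PLAU and SERPINE2 windows lie inside the genes, and those of TFPI2 and CPA4 partly so. The TFPI2 match and the CPA4 AP-1 match at 15 to 9 fall in the inside part. Positions before the start thus depend on the annotation. These are matches of letters, and the libraries hold no binding data.

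CPA4 lies in a row of carboxypeptidase A genes, 20635 bases before CPA5, with CPA1 next. These neighbours were looked at after the values were seen. CPA5 had 0 reads in the control, 10 and 3 under COLCA2 guides 1 and 2 and 15 under the POU2F3 guide. CPA1 had no reads in any library. Both stayed below the minimum mean and were not counted. Taking the 2 nearest protein-coding genes on each side of each of the 7 genes gave 28 neighbours, of which 19 were tested. Among these, 2 were at least 2-fold higher under the POU2F3 guide and 2 under both COLCA2 guides, where 6.73% and 5.79% of all genes were, and 0 were lower. The higher ones are VCL, beside PLAU, which encodes vinculin and had log2 ratios of 1.67, 1.75 and 1.5 under COLCA2 guide 1, COLCA2 guide 2 and the POU2F3 guide, and GPR176, beside THBS1, with 1.23, 1.30 and 1.11. Counts this small say nothing particular of the neighbours.

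Other genes of the plasminogen system were taken from a list of 18, of which 12 passed the minimum. Of these 12, 6 were at least 2-fold higher under both COLCA2 guides (5.79% of all genes tested) and 6 under the POU2F3 guide (6.73%), and 0 were lower (2.02% and 3.05%). The same shares stand beside the counts of the other gene lists below, which describe these lists and were not tested. Their median log2 ratio came to 1.03 for the mean of the guides and 1.13 under the POU2F3 guide, beside -0.0086 and -0.0037 over all genes tested.

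An inhibitor of the activators was among them. SERPINB2, plasminogen activator inhibitor-2, had 8.59 normalized counts in the control, 501 and 662 under COLCA2 guides 1 and 2 and 135 under the POU2F3 guide. It was higher in all 3 libraries of targeted cells, and higher with each COLCA2 guide than under the POU2F3 guide. Against the control, the mean log2 ratio of SERPINB2 was 5.91 ± 0.28 for the COLCA2 pair (SD, n = 2) and 3.83 under the POU2F3 guide, from 9 control reads. It too passed the minimum only through the libraries of targeted cells.

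Some plasminogen-binding and clearing genes were also among those higher, while others on the list stayed short of 2-fold. Under COLCA2 guide 1, COLCA2 guide 2 and the POU2F3 guide, PLGRKT was at 0.976, 1.04 and 0.919 times the control. HRG was at 0.968, 0.832 and 0.903 times, LRP1 at 1.16, 1.07 and 1.55 times, and ENO1 at 1.49, 1.47 and 1.27 times. ANXA2 and S100A10, which together form a surface complex that binds plasminogen, had mean log2 ratios of 1.95 ± 0.078 and 3.17 ± 0.13 for the COLCA2 pair (SD, n = 2) and 1.75 and 2.37 under the POU2F3 guide. Both have near-identical pseudogene copies, so their counts are uncertain. MRC2, a collagen receptor that associates with the urokinase receptor, had 1.5 ± 0.31 and 1.62. A2M, a broad protease trap, went from 77.3 to 668, 667 and 760 normalized counts. The substrate itself was low. PLG had 31 reads in the control, 1 and 2 under COLCA2 guides 1 and 2 and 45 under the POU2F3 guide. It was 0.0350-fold (0.00086 to 0.210) and 0.0795-fold (0.0092 to 0.312) the control with the guides and 1.28-fold (0.790 to 2.09) under the POU2F3 guide. PLG stayed below the minimum mean, and its count is uncertain because it has near-identical relatives.

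**Figure D4:**
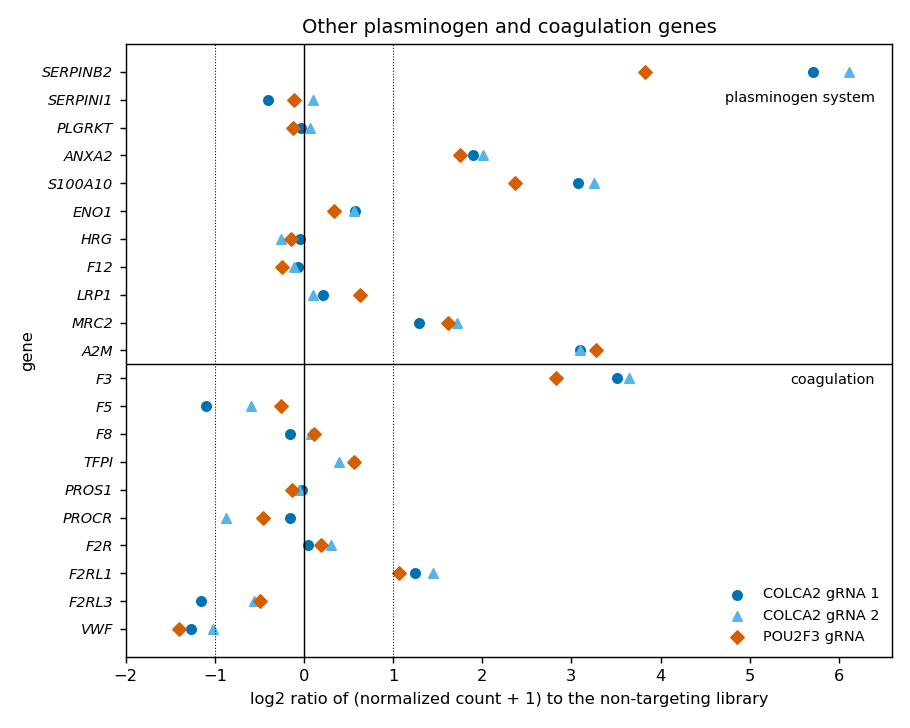
Log2 ratio of (normalized count + 1) to the control for 11 of the 12 plasminogen system genes and the 10 coagulation genes that were tested, with 1 point per library and dotted lines at 2-fold. SERPINB2, S100A10, A2M and F3 lie far to the right, and most of the others lie between the dotted lines.

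Of 25 coagulation genes, 10 passed the minimum. Of them 2 were at least 2-fold higher and 1 lower under both COLCA2 guides (5.79% and 2.02% of all genes), and 2 higher and 1 lower under the POU2F3 guide (6.73% and 3.05%). F3, tissue factor, the trigger of clotting, had a normalized count of 114 in the control, 1308 and 1435 under COLCA2 guides 1 and 2 and 815 under the POU2F3 guide. TFPI, which encodes the main tissue factor inhibitor, was at 154, 228, 202 and 227, below a 2-fold difference. For F2RL1, a receptor opened by trypsin-like proteases, the log2 ratio averaged 1.35 ± 0.14 (SD, n = 2) for the COLCA2 pair and 1.06 under the POU2F3 guide. VWF was the lower one, with 46 reads in the control and 17, 18 and 19 in the others. It passed the minimum mean mainly through the control, so that filter partly set its place as the lower gene. Its call for the COLCA2 pair ended with a pseudocount of 10.

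Of 18 carboxypeptidase and latexin genes, 7 passed, and 2 were at least 2-fold higher under both COLCA2 guides (5.79% of all genes), 2 under the POU2F3 guide (6.73%) and 0 lower. RARRES1, a relative of latexin, went from 91.7 to 928.9, 1124 and 792 normalized counts under COLCA2 guide 1, COLCA2 guide 2 and the POU2F3 guide. CPZ had 8 control reads and 37, 15 and 29 in the others, and its fold under COLCA2 guide 2 of 2.31 had an interval of 0.919 to 6.29. CPZ passed the minimum mean only through the libraries of targeted cells. Its calls for the COLCA2 pair and under the POU2F3 guide both ended with a pseudocount of 10. The log2 ratio of CPZ under the POU2F3 guide was then 0.96. LXN, latexin, the inhibitor of carboxypeptidase A enzymes, had between 2 and 8 reads per library. Of 7 thrombospondin and receptor genes, 6 passed and only CD36, a thrombospondin receptor, was called, higher under both COLCA2 guides (5.79% of all genes) and the POU2F3 guide (6.73%). It was at 87.9 in the control, 394 and 549 for the COLCA2 pair and 232 under the POU2F3 guide. Of 20 cell-surface serine protease genes and genes of the HGF axis, 11 passed. With both COLCA2 guides 2 were higher (5.79% of all genes), under the POU2F3 guide 0 were (6.73%), and 0 were lower with either. Of those 2, 1 passed the minimum mean mainly through the COLCA2 libraries, so that filter partly set its place among the higher genes.

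The POU2F3 gRNA library was set directly against the COLCA2 libraries, which leaves the control out. None of the 7 genes was at least 2-fold higher or lower than in both COLCA2 libraries, where 0.442% of all genes were higher and 0.924% lower. PLAU was 0.757-fold COLCA2 gRNA 1 (0.727 to 0.789) and 0.649-fold COLCA2 gRNA 2 (0.623 to 0.676). CPA4 was 0.735-fold (0.693 to 0.781) and 0.671-fold (0.632 to 0.713). For both genes the POU2F3 gRNA library was below the guides by more than the guides were apart, with log2 gaps to the nearer guide of -0.40 for PLAU and -0.44 for CPA4 beside gaps between the guides of -0.22 and -0.13. TFPI2, at 1.02-fold (0.818 to 1.28) and 0.702-fold (0.569 to 0.866), lay between the guides. THBS1 was at 0.994-fold (0.975 to 1.01) and 0.879-fold (0.862 to 0.896), a log2 gap to guide 2 of -0.19 beside -0.18 between the guides. PLAUR was at 0.984-fold (0.846 to 1.14) and 0.95-fold (0.814 to 1.11). With 1 library of POU2F3 gRNA these differences have no replicate check of their own.

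The genes whose pattern over the 4 libraries was most like each member were found by the Euclidean distance between log2 values after each gene's mean was subtracted, among 11995 genes with a mean of at least 100. For CPA4 they were KRT17 at a distance of 0.44 and FST at 0.56. For PLAU they were SPNS2 at 0.11 and INHBA at 0.13, and for THBS1 they were APOBEC3C at 0.12 and PTX3 at 0.19. TFPI2 was nearest to PRNP at 0.15 and RAMP1 at 0.22, and PLAT to TOGARAM1 at 0.74 and MEGF6 at 0.93. PLAUR was nearest to SPDL1 at 0.019 and CCDC115 at 0.034, and SERPINE2 to ZPR1 and RASL10B, each at 0.010. INHBA, for example, had normalized counts of 38.2 in the control, 514 and 623 under COLCA2 guides 1 and 2 and 390 under the POU2F3 guide, the same order of libraries as PLAU. Among the 7 genes themselves PLAU and THBS1 were the closest pair, at 0.52, followed by PLAUR and SERPINE2 at 0.56. With 4 libraries a small distance describes these libraries only.

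Several of these genes are also expressed by fibroblasts, endothelial cells, leukocytes and platelets, so markers of those cells were summed. The 7 fibroblast markers had a summed normalized count of 1391 in the control, 2185 and 1853 under COLCA2 guides 1 and 2 and 1798 under the POU2F3 guide, and none was at 0 in any library. Of the 6 that passed the minimum, COL3A1, LUM and PDGFRB were at least 2-fold higher under each of the 3 targeting guides, LUM passing the minimum only through those libraries. Of all 14940 genes tested, 731 were that much higher in all 3. COL1A1 was at 1136 in the control and between 1002 and 1186 elsewhere. PDGFRA was at 0.885 and 0.654 times the control under COLCA2 guides 1 and 2 and 1.72 times under the POU2F3 guide. DCN was at 0.968, 1.73 and 1.43 times in the same order. The 6 endothelial markers summed to 158 in the control and between 90.6 and 106 in the others, with KDR at 0 in all 4 libraries. ESAM made up most of that difference, at 117 in the control, 78.8 and 52.9 under COLCA2 guides 1 and 2 and 45.3 under the POU2F3 guide. PECAM1 was at 22.0, 23.8, 23.5 and 25.2 in the same order. The 5 platelet markers summed to between 116 and 165, with PF4 and GP9 at 0 in all 4. The 6 leukocyte markers summed to 98.4 in the control, 257 and 238 under COLCA2 guides 1 and 2 and 178 under the POU2F3 guide, with CD3E at 0 in all 4. CD68, the single one that passed the minimum, was 2.89-fold, 2.75-fold and 1.92-fold the control, and ITGAM had 0 control reads and 32, 12 and 16 in the others, while PTPRC had 17 control reads and 8, 8 and 10. The part of the fibroblast and leukocyte markers in the differences was not tested. In bulk RNA, fewer cells of a type and less RNA per cell cannot be told apart.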

How the data were processed

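RNA was extracted with TRIzol, poly(A)-selected and made into NEBNext Ultra II libraries, per the labels' protocols. Salmon, DESeq2 and hg38 are named in the submitters' processing notes, without a role, and use of the strand is not given in the sources used here. The values are normalized counts per gene, per the file headers, a linear signal that the authors deposited. In each library 100% of values were whole multiples of 1 step (within 0.01 reads), so reads were recovered by dividing by that step.

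Rows of 1 symbol were summed, genes averaging at least 20 across the libraries were tested (14940), and log2 ratios used a pseudocount of 1. Genes at least 2-fold apart were counted with no test, because 2 groups hold 1 library. For COLCA2, each guide had to pass. Exact binomial (Clopper-Pearson) 95% intervals of read ratios cover counting error alone, because PCR copies of a molecule cannot be recognised. Positions, overlaps and lengths came from GENCODE 29. The members and lists were chosen with earlier results of these data known. Named genes were the members, the targets, their direct partners, list genes 2-fold from control in the same direction in all 3 libraries, and the 2 most alike genes for each member. Neighbours, and list genes short of 2-fold that are named beside higher ones, were added later. Some of these genes are counted but not reported here by name.

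As an alternative, edgeR 4.0.16 ran its quasi-likelihood test (TMM, Benjamini-Hochberg 0.05) on the recovered reads, with 1 residual degree of freedom from the COLCA2 guides. It compares libraries. It called 1709 genes higher and 1122 lower with COLCA2 gRNA, 1263 and 595 with POU2F3 gRNA, and 16 and 35 between POU2F3 and COLCA2 gRNA. Scripts were tested on simulated data. Other alternatives were 3 scalings, pseudocounts, minimum means, fold thresholds, each guide left out and the highest row of a symbol.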

Additional observations from a re-analysis of the deposited data

How the results depend on the processing

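No paired analysis was possible because no 2 groups have a pair of replicate numbers in common. A count is called moved when it changed by over 1.5 times. By that rule the numbers of the 7 genes higher or lower than the control did not move under any alternative. They still ranged from 4 to 5 higher with each target, with 0 lower. Against the COLCA2 guides, 0 to 1 of the 7 were higher under POU2F3 targeting when 1 guide was left out, PLAT being the 1 without gRNA 2. The share of all genes with 1 guide left out is not given here for that contrast, so nothing is read from that count. No 2-fold log2 ratio of a named gene changed sign, and the 3 scalings moved the median of all genes by less than 0.1 on the log2 scale.

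Of the other pathway genes, 13 were higher under COLCA2 targeting and 11 under POU2F3 targeting. These became 7 and 6 at a 4-fold threshold and 22 and 19 without a minimum mean. The single lower gene with each target became 2 and 3 at 1.5-fold, 0 and 0 at 4-fold, 5 and 5 without a minimum and 0 and 0 with a minimum of 100. For COLCA2 it was also 0 with a pseudocount of 10 and 1 to 3 with 1 guide left out, and for POU2F3 it was 2 by edgeR.

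Over all genes, 865 were higher and 302 lower with both COLCA2 guides, and 1005 and 455 under POU2F3 targeting. Without a minimum mean the counts were 1857, 1028, 2551 and 1639, at 1.5-fold 1451, 901, 1822 and 1149, and at 4-fold 346, 44, 365 and 113. A minimum of 100 gave 177 lower under COLCA2 targeting and 631 and 233 under POU2F3 targeting, and edgeR gave 1709 and 1122 under COLCA2 targeting. With 1 guide the lower count was 477 to 544. Values of PLAT, PLG, CPZ, LXN and VWF, at under 50 reads per library, are limited by depth.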
